A study of Mus musculus with 6 samples.

Results

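Lipid droplet coat and lipolysis genes were followed in fat-fed livers of 2 mouse substrains. The set held 10 named genes. These were the perilipins Plin2, Plin3, Plin4 and Plin5, the CIDE genes Cidea, Cideb and Cidec, and the lipolysis genes G0s2, Pnpla2 and Pnpla3. A member was read from a probe set whose only annotated gene symbol is that gene, and from the brighter one where there was more than 1. By this rule 9 of the 10 members were measured, among 22180 genes tested. Cideb was not, since the probe set that names it carries 2 symbols. The study compared livers of male Balb/c mice (3 arrays) with livers of male Balb/cBy mice (3 arrays), all aged 20 weeks. Every mouse, in both groups, was kept in a cage of its own and was fed from 8 weeks of age, for 12 weeks, on food in which fat supplied 58% of the energy, so no array gives the level on another diet. Balb/cBy mice are known to carry a deletion in Acads, the mitochondrial short-chain acyl-CoA dehydrogenase; the labels themselves name only the strain. Per the labels the replicates are biological, but whether an array holds 1 liver or a pool is not stated.

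Hepatocytes store surplus fatty acids as triglyceride in lipid droplets, whose surface is covered by proteins. Perilipins coat the droplet and limit the access of lipases. CIDE proteins gather where droplets touch and pass lipid from the smaller to the larger one, so that droplets grow. Lipolysis begins with the adipose triglyceride lipase, encoded by Pnpla2, which is held in check by the small inhibitor protein of G0s2. In a fat-fed liver several of these genes are known to be controlled by the lipid-sensing PPAR receptors.

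Across the members no strain difference passed the test. With limma, 0 of 9 members reached an adjusted p of 0.05 over all genes, where 0% of all genes did (the smallest adjusted p of any gene was 0.166). All 9 members had an adjusted p of 0.999. Without adjustment 0 members had a limma p under 0.05, as 3.76% of all genes did. Plin3 was the 1 member of 9 whose values did not overlap between the strains, all Balb/cBy arrays lying above all Balb/c arrays. Over all genes 4.32% lay apart in that direction, 3.51% in the other and 7.83% in either. The differences, always Balb/cBy minus Balb/c on the log2 scale, ran from -0.59 for G0s2 to 0.52 for Cidec. They were above 0 for 5 members and below 0 for 4, with a median of 0.05, against a median of -0.0028 over all genes. A size of at least 0.5 was reached by 2 of 9 members, G0s2 and Cidec, and by 1.16% of all genes. The values of the same 2 members spanned at least 1 on the log2 scale over the 6 arrays, as did those of 3.79% of all genes. Within Balb/c the span was 0.54 for Cidec and 0.73 for G0s2. Within Balb/cBy it was 1.29 for Cidec and 0.98 for G0s2. The median standard error (SE) of the members was 0.17, and 0.12 over all genes.

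**Figure D1:**
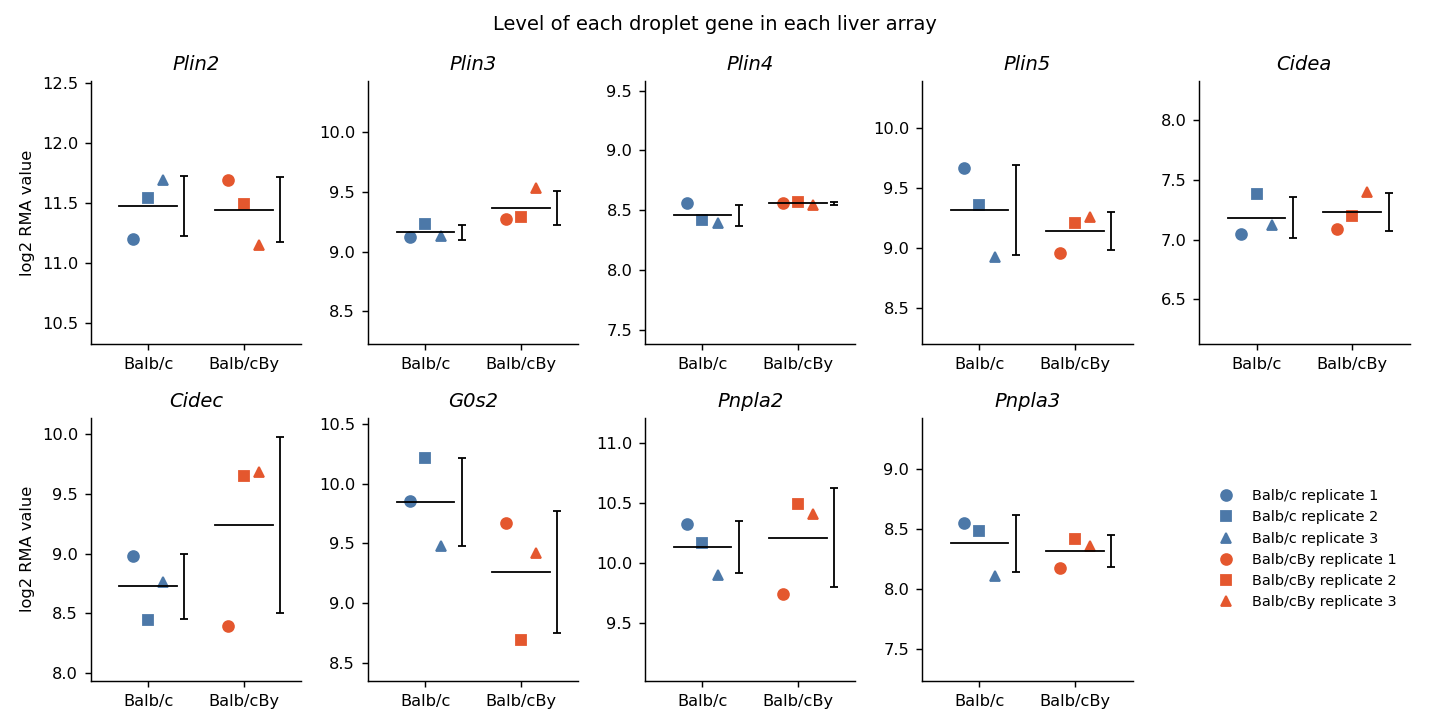
Deposited log2 RMA values of the 9 measured droplet genes in each array, with 1 symbol per array, a horizontal line at the mean of a strain and a bar of ± 1 SD beside it (n = 3). All panels span the same height of the log2 scale around different centres. Plin3 is the 1 gene without overlap, and Cidec and G0s2 have the widest spread.

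The whole series gave the following background to these values. Array medians lay between 7.66 and 7.74, and correlations between arrays over all probe sets were 0.972 to 0.989. Hepatocyte markers such as Alb and Ttr were bright on every array, with a mean over 10 markers of 13.3 to 13.4 in Balb/c and 13.3 to 13.4 in Balb/cBy. Acads stood at 11.53, 11.46 and 11.28 in Balb/c and at 10.60, 10.79 and 10.93 in Balb/cBy. Its groups did not overlap, as in 3.51% of all genes in that direction. The difference of -0.65 (SE 0.12) did not pass either (adjusted p = 0.476 in limma). The deposited values hold no detection call, and brightness depends on the probe, so that levels of different genes are not set against each other. In whole liver, fewer cells of a type and less RNA per cell cannot be told apart.

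Plin2, the perilipin that coats most droplets of hepatocytes, had close means in the strains and a spread within each that was wider than their difference. It stood at 11.20, 11.54 and 11.69 in Balb/c and at 11.69, 11.49 and 11.15 in Balb/cBy. The highest and the lowest Balb/c values had a near match in Balb/cBy, and the groups overlapped over almost their whole range. The log2 difference was -0.03 (SE 0.17, adjusted p = 0.999 in limma), with a 95% interval from -0.42 to 0.36. It changed sign when Balb/c replicate 2 (0.0012), Balb/c replicate 3 (0.08) or Balb/cBy replicate 3 (0.12) was left out.

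The promoter of Plin2 was the one member promoter to hold an inexact match to a spaced pair of AGGTCA motifs. Such a pair is the form of element that PPAR receptors bind together with RXR. RefSeq windows from 250 bases before to 50 after a start site were listed for 9 members, 11 windows in all since Plin5 and Cidec have 2 each. The search covered both strands. The pair, AGGTCA repeated after any 1 base, with up to 2 mismatches in its fixed letters, was in 1 of the 11 windows and in 3.86% of all 32851 windows. The palindrome CACGTG, the E-box, was also in 1 of 11, again that of Plin2, and in 7.15% of all. A single exact AGGTCA, which can be part of such a pair, was in 3 of 11 (Plin2 and both windows of Plin5) and in 16.3% of all. TATAAA was in 1 of 11 (Cideb) and in 13.6% of all, and the sterol element TCACNCCAC in 0 of 11 and in 1.24%. Plin5 and Pnpla3 had the highest r of the member pairs (0.95), which did not pass (exact permutation p = 0.00833, adjusted 0.3). Shown here are the promoter with the match to the motif pair (Plin2), those of Plin5 and Pnpla3, and that of G0s2, the member with the smallest p. They read 5′ to 3′ on the strand of the gene, from 250 bases before to 25 after the start site, in build GRCm38.p6. Capitals mark the matches named above.
Plin2 (chr4:86670035-86670309, minus strand): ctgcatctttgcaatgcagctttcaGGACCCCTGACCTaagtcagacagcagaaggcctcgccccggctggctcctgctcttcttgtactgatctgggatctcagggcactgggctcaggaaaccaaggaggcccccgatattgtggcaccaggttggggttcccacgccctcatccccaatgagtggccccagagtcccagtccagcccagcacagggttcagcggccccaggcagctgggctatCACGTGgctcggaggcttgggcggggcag
Plin5 (chr17:56117524-56117798, minus strand, the first of its windows): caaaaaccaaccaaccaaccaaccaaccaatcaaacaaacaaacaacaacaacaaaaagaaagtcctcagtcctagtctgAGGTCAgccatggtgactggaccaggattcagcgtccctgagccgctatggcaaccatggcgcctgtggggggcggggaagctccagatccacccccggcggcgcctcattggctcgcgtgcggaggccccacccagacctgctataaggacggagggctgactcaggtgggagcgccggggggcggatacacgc
Pnpla3 (chr15:84167566-84167840, plus strand): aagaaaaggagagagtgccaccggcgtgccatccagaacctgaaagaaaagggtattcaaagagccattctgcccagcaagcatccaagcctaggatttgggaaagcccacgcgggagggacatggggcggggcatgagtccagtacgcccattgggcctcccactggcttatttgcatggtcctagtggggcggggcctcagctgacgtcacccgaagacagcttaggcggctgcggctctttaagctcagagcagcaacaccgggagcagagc
G0s2 (chr1:193273164-193273438, minus strand): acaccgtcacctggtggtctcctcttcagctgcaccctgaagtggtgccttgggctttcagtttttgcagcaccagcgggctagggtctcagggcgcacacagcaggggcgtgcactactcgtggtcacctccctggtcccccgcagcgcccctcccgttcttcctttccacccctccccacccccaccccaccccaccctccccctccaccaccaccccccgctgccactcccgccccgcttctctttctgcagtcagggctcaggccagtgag
In Plin2 the match to the pair lay on the opposite strand at bases -225 to -213 from the start, with 2 mismatches. The exact AGGTCA counted for Plin2, at bases -218 to -213, is part of this match, and both mismatches lie in the rest of it. The E-box ran across the start itself, from base -4 to base 2. In Plin5 the AGGTCA lay at bases -170 to -165. The windows of Pnpla3 and G0s2 held none of the 5 motifs, which says only that these letters are absent from the window.

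Plin3, also known as Tip47, binds small new droplets and is made in most tissues. It stood at 9.12, 9.23 and 9.13 in Balb/c and at 9.27, 9.29 and 9.53 in Balb/cBy. The lowest Balb/cBy array was 0.04 above the highest Balb/c array, so the groups lay apart by a narrow gap. The difference was 0.20 (SE 0.10), a 1.15-fold higher level in Balb/cBy that did not pass (adjusted p = 0.999 in limma). Its exact two-sided permutation p was 0.1, the smallest that 3 arrays against 3 allow. The 95% interval ran from -0.03 to 0.44. The difference was 0.12 without Balb/cBy replicate 3, the highest array.

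Plin4, a perilipin of adipocytes and muscle that coats nascent droplets, varied least of all members. Its values were 8.56, 8.42 and 8.39 in Balb/c and 8.56, 8.57 and 8.54 in Balb/cBy. The Balb/cBy arrays lay within 0.03 of each other, and Balb/c replicate 1 reached into their range. The difference was 0.10 (SE 0.09), and it was 0.16 without Balb/c replicate 1. The interval from -0.10 to 0.31 leaves room for a small difference in either direction.

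Plin5, the perilipin of oxidative tissues that ties droplets to mitochondria, had its widest spread in Balb/c. It stood at 9.67, 9.36 and 8.92 in Balb/c, which enclosed the Balb/cBy values of 8.96, 9.21 and 9.26. The difference was -0.17 (SE 0.19, interval -0.60 to 0.26). Leaving out replicate 1 of Balb/c gave 0.0062, replicate 3 of Balb/c gave -0.37 and replicate 1 of Balb/cBy gave -0.08.

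Among the CIDE genes, Cidea, best known from brown fat and from strongly steatotic liver, gave 7.05, 7.38 and 7.12 in Balb/c and 7.09, 7.20 and 7.40 in Balb/cBy. All of these values lay below the array medians of 7.66 to 7.74. Without a detection call, whether Cidea was detected is not known. Each strain covered nearly the same range, and the difference was 0.05 (SE 0.13, interval -0.24 to 0.34). Its sign turned when Balb/c replicate 1 (-0.02) or Balb/cBy replicate 3 (-0.04) was left out.

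Cidec, also called Fsp27, makes large droplets in adipocytes and is induced in fatty liver. It had the largest difference above 0. Its values were 8.98, 8.44 and 8.76 in Balb/c and 8.39, 9.65 and 9.68 in Balb/cBy. Balb/cBy replicates 2 and 3 were the highest of the 6 arrays, while Balb/cBy replicate 1 was the lowest of all. The difference was 0.52 (SE 0.33), a 1.43-fold level, and it did not pass (adjusted p = 0.999 in limma; exact permutation p = 0.4). The 95% interval, from -0.24 to 1.27, was the widest of the members. Without Balb/cBy replicate 1 the difference was 0.94, without replicate 2 it was 0.31, and without replicate 3 it was 0.30, so the value changed with the Balb/cBy array left out.

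Markers of adipocytes, which also make much Cidec, were set beside it. Retn, the adipocyte hormone resistin, stood at 8.94, 8.60 and 8.84 in Balb/c and at 8.46, 9.34 and 9.61 in Balb/cBy. The order of the 6 arrays was the same as for Cidec. Adiponectin, Adipoq, gave 7.73, 7.28 and 7.31 in Balb/c and 7.33, 7.97 and 7.89 in Balb/cBy, with the same 3 arrays on top. Over the 6 arrays, Pearson's r of Cidec with Retn was 0.98 (exact permutation p = 0.00278) and Spearman's rho was 1 (exact permutation p = 0.00278), each 0.025 after Benjamini-Hochberg adjustment over the 9 markers measured. Leaving out Balb/cBy replicates 2 and 3, the arrays farthest from the median of Cidec, r was still 0.98. For Adipoq r was 0.95 (exact permutation p = 0.0222, adjusted 0.1) and rho 0.77 (exact permutation p = 0.103, adjusted 0.408), with r of 0.81 without the same arrays. These relations were looked at after the values had been seen, and 5 of the 9 markers had an r above 0. For leptin, Lep, which stood at 7.57 to 7.72 on all arrays, r was -0.01 (exact permutation p = 0.989) and rho 0.37 (exact permutation p = 0.497). For Ucp1, Adig and Lipe r was -0.47, -0.34 and -0.31. For Nnat, Plin1 and Fabp4 it was 0.71, 0.63 and 0.57. Ucp1 (7.40 to 7.77), Adig (6.92 to 7.16) and Lep lay near or below the array medians of 7.66 to 7.74, as did Adipoq. An r of a gene at such a level says little. Only Retn had an adjusted p under 0.05 in the exact permutation test. That adjustment covered the 9 markers but not the choice of Cidec among the members, so the p is given as a description. The mean over the 9 markers was 8.20 to 8.36 in Balb/c and 8.12, 8.38 and 8.52 in Balb/cBy replicates 1, 2 and 3, with 4 markers above 0 in strain difference and 5 below. Their part in the values of Cidec was not tested.

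**Figure D2:**
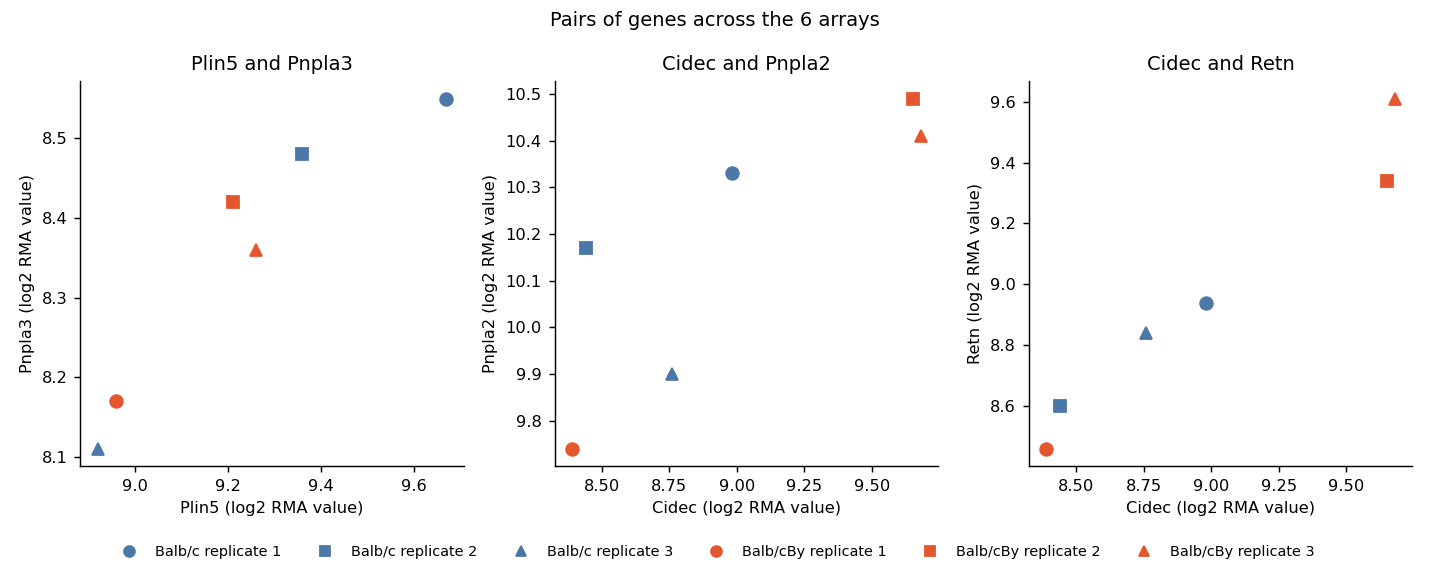
Levels of Plin5 against Pnpla3, Cidec against Pnpla2 and Cidec against the adipocyte gene Retn, as log2 RMA values with 1 symbol per array. The arrays of both strains mix along the first pair, and in the others Balb/cBy replicates 2 and 3 lie at the top and Balb/cBy replicate 1 at the bottom.

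The lipase itself, Pnpla2, which takes the first fatty acid from triglyceride, was likewise high in Balb/cBy replicates 2 and 3 and lowest in replicate 1. It stood at 10.33, 10.17 and 9.90 in Balb/c and at 9.74, 10.49 and 10.41 in Balb/cBy. Of the Balb/cBy arrays, 2 thus lay above all Balb/c arrays and 1 below them. The difference was 0.08 (SE 0.21, interval -0.39 to 0.55). It was 0.32 without Balb/cBy replicate 1, and was below 0 without Balb/c replicate 3 (-0.03), Balb/cBy replicate 2 (-0.05) or Balb/cBy replicate 3 (-0.02).

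G0s2, whose product binds and inhibits this lipase, had the smallest p of the members and the largest difference below 0. Its values were 9.85, 10.21 and 9.48 in Balb/c and 9.67, 8.69 and 9.42 in Balb/cBy. Balb/cBy replicate 2 was the lowest array by far, and Balb/cBy replicate 1 lay above Balb/c replicate 3. The difference was -0.59 (SE 0.27), a level of 0.666 times that of Balb/c, with an interval from -1.20 to 0.03. It did not pass (adjusted p = 0.999 in limma; exact permutation p = 0.2). Without Balb/cBy replicate 2 it was -0.30. G0s2 was the 1 member with 2 probe sets, and they gave different sizes. The dimmer one read 8.07, 8.33 and 7.85 in Balb/c and 8.01, 7.93 and 7.97 in Balb/cBy, a difference of -0.12 (SE 0.13, adjusted p = 0.999 in limma).

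Pnpla3, a lipase-like droplet protein whose human counterpart is known for a fatty liver variant, gave 8.55, 8.48 and 8.11 in Balb/c and 8.17, 8.42 and 8.36 in Balb/cBy. The Balb/c values enclosed the Balb/cBy values. The difference was -0.06 (SE 0.14, interval -0.37 to 0.25), and leaving out replicate 1 of Balb/c (0.02) or of Balb/cBy (0.01) turned its sign.

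**Figure D3:**
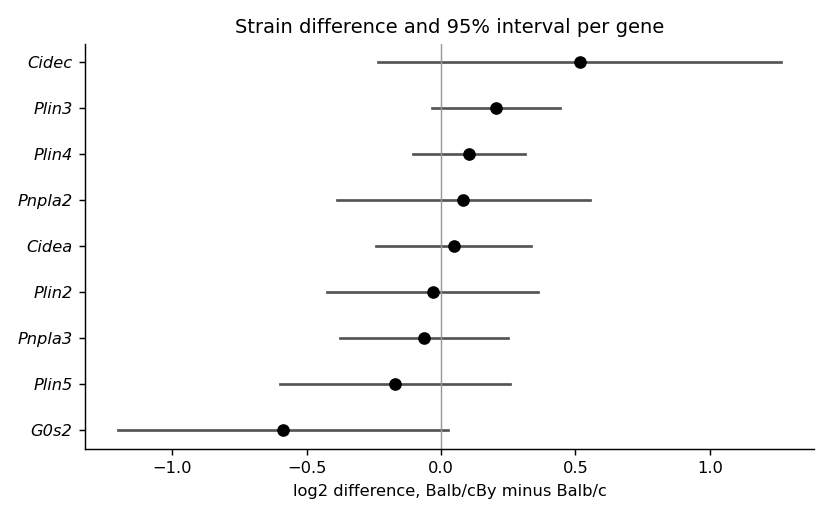
Log2 difference (Balb/cBy minus Balb/c) of each measured droplet gene as a point, with its 95% interval from the moderated SE of limma as a line (3 arrays per strain). All 9 intervals include 0.

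Among themselves the members formed no pair that passed. Of 36 pairs of measured members, 2 had an unadjusted exact permutation p under 0.05 and 0 an adjusted one by Pearson's r or by Spearman's rho. The closest pair was Plin5 and Pnpla3, with r of 0.95 (exact permutation p = 0.00833, adjusted 0.3) and rho of 0.94 (exact permutation p = 0.0167, adjusted 0.6). It was 0.96 without Balb/c replicates 1 and 3. With the strain means removed r was again 0.95, a description with no test; a strain alone has too few arrays for a value. Cidec and Pnpla2 had r of 0.82 (exact permutation p = 0.0389, adjusted 0.522) and rho of 0.89 (exact permutation p = 0.0333, adjusted 0.6). Their r was 0.87 with the strain means removed, and 0.59 without Balb/cBy replicates 2 and 3, on which the relation in part rested. Cidec and G0s2 had an r of -0.74 (exact permutation p = 0.0833, adjusted 0.522) and rho of -0.66 (exact permutation p = 0.175, adjusted 0.787), and r was -0.28 without the same arrays.

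The genes most like Plin2 over the 6 arrays, by Pearson's r among all other genes, were Alkal1 (r of 0.993), Cyp4f17 (0.986) and Wnk2 (0.986). Alkal1 ran from 5.30 to 5.69, a narrower span than that of Plin2. Those most like G0s2 were Olfr206 (0.994), Cyct (0.993) and 4930473O22Rik (0.993). Olfr206 ran from 4.18 to 4.57, Cyct from 6.75 to 7.11 and 4930473O22Rik from 5.53 to 6.19. All of them, like Alkal1, lay below the array medians of 7.66 to 7.74. With 6 arrays many genes come this close: 75 genes had an r above 0.95 with Plin2, and 176 with G0s2. The r values are descriptions with no test.

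Further genes of the pathway gave no call either. Of 19 measured genes of droplet formation and other droplet proteins, 0 passed in limma, 9 lay above 0 and 10 below, with a median of -0.0096. The smallest p values were those of Ldah, a droplet hydrolase, at 0.28 (SE 0.14), and of Faf2, which recruits the degradation machinery to droplets, at 0.22 (SE 0.10). Faf2 stood at 9.98, 9.88 and 9.90 in Balb/c and at 10.02, 10.31 and 10.08 in Balb/cBy. It was the 1 gene of 19 in this list without overlap, beside 7.83% of all genes.

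Of 19 other lipases and lipase regulators, 0 passed, 11 lay above 0 and 8 below, with a median of 0.03. The carboxylesterases Ces1g and Ces1d, which hydrolyse esters in the endoplasmic reticulum of hepatocytes, had the smallest p, with differences of -0.44 (SE 0.21) and -0.26 (SE 0.13). Ces1g stood at 11.90, 11.74 and 12.14 in Balb/c and at 11.11, 11.95 and 11.42 in Balb/cBy, where replicate 2 overlapped the other strain. The phospholipase Ddhd1, named after its values had been seen, was the 1 gene of 19 without overlap (0.18, SE 0.09), beside 7.83% of all genes. Abhd5, the activator of the lipase encoded by Pnpla2, differed by 0.16 (SE 0.17) and Lipe, the hormone-sensitive lipase, by -0.11 (SE 0.11); both were named for their role, after their values had been seen.

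Of 16 genes of triglyceride and sterol ester synthesis, 0 passed, 7 lay above 0 and 9 below, with a median of -0.02. Agpat5, an acyltransferase, had a difference of 0.22 (SE 0.12) and was the 1 gene of 16 without overlap, beside 7.83% of all genes. Gpam, which starts glycerolipid synthesis, had -0.21 (SE 0.14). Lpin1, a phosphatidate phosphatase picked out after its values were seen, was farthest from 0 of all these genes at 0.68 (SE 0.57). It stood at 10.99, 9.27 and 9.54 in Balb/c and at 9.42, 11.45 and 10.96 in Balb/cBy. The 3 arrays high in Lpin1, 1 of Balb/c and 2 of Balb/cBy, were also the 3 highest in Cidec and in Pnpla2.

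Of 8 genes linked to fat storage under PPAR-gamma, 0 passed, 4 lay above 0 and 4 below, with a median of 0.01. Lpl, lipoprotein lipase, had a difference of 0.30 (SE 0.22) and Cd36, a fatty acid transporter, of 0.14 (SE 0.22). Pparg itself, likewise named after its values had been seen, stood at 9.59, 9.39 and 9.54 in Balb/c and at 8.99, 10.03 and 9.10 in Balb/cBy, with the lowest and the highest value both in Balb/cBy. Relative to the mean of each gene, the list averages of Balb/cBy replicate 1 were -0.14, -0.20, -0.19 and -0.25 in these 4 lists in the order given. Those of Balb/cBy replicate 2 were 0.18, 0.15, 0.18 and 0.16. Replicate 2 was the highest of the 6 arrays in each of the 4 lists. Replicate 1 was the lowest in each but the first, where Balb/c replicate 2 was lower (-0.155). Its low position was not limited to these lists. Balb/cBy replicate 1 stood at -0.19 in the adipocyte, -0.12 in the macrophage, -0.059 in the hepatocyte and -0.035 in the stellate cell markers. In the skeletal muscle markers it stood at 0.008. Among the array weights, its weight of 0.467 was the lowest of the 6 arrays. The lists share Lpl and Mogat1 with each other, and Plin1, Lipe and Fabp4 with the adipocyte markers; Fabp4 is also made by macrophages.

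**Figure D4:**
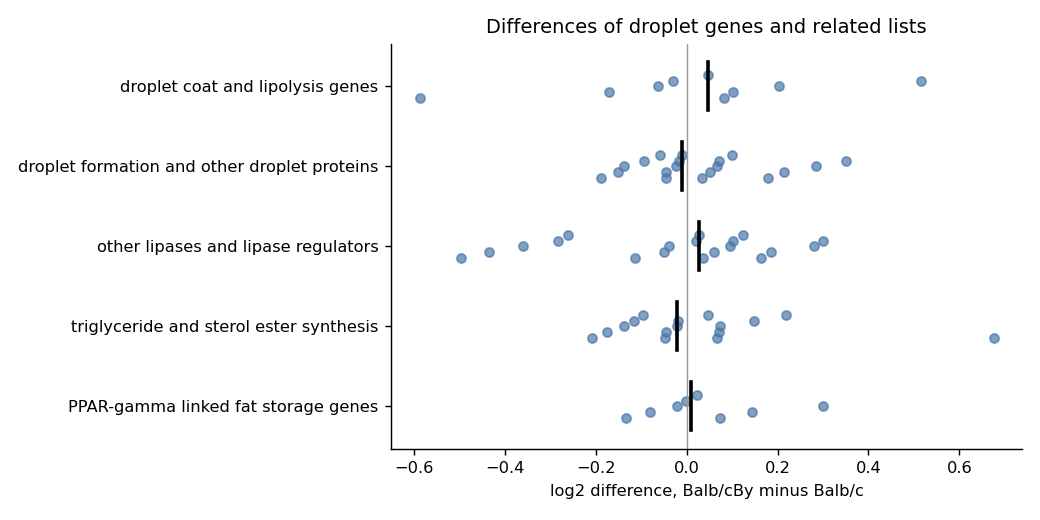
Log2 difference (Balb/cBy minus Balb/c) of every measured gene of the droplet set and of 4 related lists, 1 point per gene, with a vertical bar at the median of a list. The medians lie between -0.02 and 0.05, and no gene shown passed the test.

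Markers of stellate cells, macrophages, skeletal muscle and hepatocytes gave these values. Over all genes 49.1% lay above 0 and 7.83% did not overlap. Of 10 stellate cell markers 9 lay above 0, with a median of 0.20 and 0 past the test; Lum had a difference of 0.53 (SE 0.12) and Dcn of 0.48 (SE 0.14), both without overlap. The mean over that list was 9.45 to 9.88 in Balb/c and 9.72 to 10.03 in Balb/cBy. Of 11 macrophage markers 7 lay above 0, with a median of 0.11 and 0 past the test; Gpnmb had 0.36 (SE 0.10) and Mpeg1 0.35 (SE 0.12), both without overlap, while Adgre1 had -0.37 (SE 0.29) and Marco -0.24 (SE 0.15), named after their values had been seen. Of 7 skeletal muscle markers 5 lay above 0, with a median of 0.08 and 0 past the test; Myh4 had 0.19 (SE 0.11) and Ckm 0.17 (SE 0.12). Of 10 hepatocyte markers 5 lay above 0, with a median of 0.0063, Hnf4a at 0.17 (SE 0.12) and Fgb at 0.11 (SE 0.14), and 0 past the test. Plin2 is also made by stellate cells and macrophages, Plin3 by most cells and Plin4 by muscle; the part of these cells in the members' values was not tested.

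**Figure D5:**
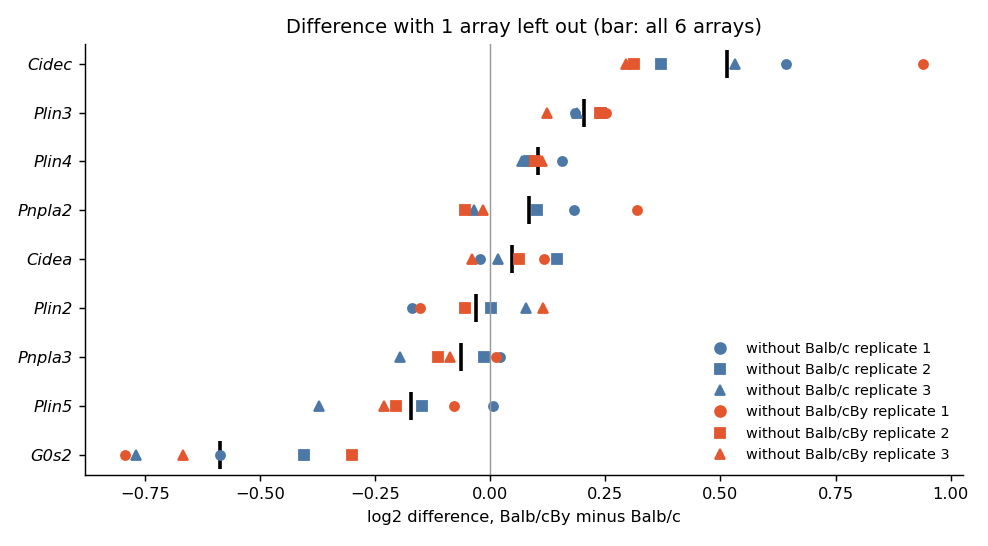
Log2 difference (Balb/cBy minus Balb/c) of each measured droplet gene with all 6 arrays (black bar) and with 1 array left out (symbols). Cidec spans 0.30 to 0.94 and G0s2 -0.79 to -0.30, each on 1 side of 0, as do Plin3 and Plin4. The other members cross 0.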

How the data were processed

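Liver RNA (500 ng, Trizol extraction, per the labels' protocols) was hybridised to 6 Affymetrix arrays, 3 per strain. The authors deposited log2 values, 1 per probe set and array, computed with RMA per the submitters' processing notes; version, filters and build are not given in these sources. Values are therefore relative to the array as a whole, and the number of arrays limits the precision.

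Of 41345 probe sets, 23521 carried 1 gene symbol in the platform annotation, 1814 several and 16010 none here. The brightest probe set of a gene was kept, with no filter on low values. Balb/cBy minus Balb/c was tested with limma 3.58.1 (lmFit, eBayes; R 4.3.3) on all 6 arrays without a covariate, with Benjamini-Hochberg adjustment over 22180 genes and a threshold of 0.05. Intervals are moderated 95% intervals of single genes, not adjusted for the number of genes. Relations used exact permutation tests (SciPy 1.17.1). The script was tested on simulated data.

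Named genes were the members, Acads and the 2 genes of smallest p in each list (none passed). The 3 genes most like Plin2 and G0s2 were named too. Alb, Ttr, Ddhd1, Mogat1 and the adipocyte markers besides Retn and Adipoq fell outside this rule. Others are marked where they appear. The members and lists were chosen with earlier results of these data known. Alternatives tried were a replicate block, recentring, repeated quantile normalization, 2 filters on low values, other probe set rules, other variance models, array weights, another threshold and leaving out each array. Promoters came from RefSeq (GRCm38.p6); none was listed for Cidea. Ldaf1, Acsl3, Lipc, Soat1, Soat2, Cfd and Acsl1 of the lists were not analysed here.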

Additional observations from a re-analysis of the deposited data

How the results depend on the processing

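No member passed under any of the 17 alternatives, where the adjusted p of a member in limma ranged from 0.282 to 1. Over all genes the count past the threshold was 0, but 12 with array weights and 0 to 3 when 1 array was left out (2 genes when Balb/c replicate 3 was dropped, 3 genes when Balb/cBy replicate 1 was); none of these was a member. Plin3, Plin4, Cidec and G0s2 kept the sign of their difference in all alternatives run. With 1 array left out the difference of Plin2 ran from -0.17 to 0.12, of Plin5 from -0.37 to 0.0062, of Cidea from -0.039 to 0.15, of Pnpla2 from -0.054 to 0.32 and of Pnpla3 from -0.20 to 0.021, each crossing 0. The median over the members ran from -0.05 to 0.10 in the same way. The dimmer probe set of G0s2 gave -0.12 in place of -0.59. The filter at the median gene removed Cidea. With the replicate number as a block, 0 genes and 0 members passed, as without it, and 511 genes in place of 833 had an unadjusted p under 0.05. Leaving out Balb/cBy replicate 1 gave 1828 genes with an unadjusted limma p under 0.05. Deviations from the strain mean had correlations of -0.32, -0.20 and -0.23 between same-numbered arrays of the 2 strains. Between arrays of different number they ran from 0.015 to 0.224. Whether same-numbered arrays shared a step of handling was not tested.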
